A study of Mus musculus with 4 samples.

Results

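The 39 genes described here carry out or license DNA replication and drive entry into S phase, and they were chosen by symbol, with earlier results of these data known, from the 37681 gene rows of the deposited count tables, of which 32642 have a symbol. Messenger RNA was sequenced from the bone marrow of C57BL/6 mice of wild-type genotype, cultured in DMEM with serum and with supernatant of L929 cells, which secrete M-CSF and so favour macrophage growth. There were 4 groups with 1 library each: cells with shRNA against lncRNA-COX2 given 100 nM Pam3Cys4 (5 h by the sample titles), cells with that shRNA left unstimulated, cells without shRNA given the same Pam3Cys4, and cells without shRNA left unstimulated. Pam3Cys4 is a synthetic lipopeptide sensed by TLR2 together with TLR1. Both groups without shRNA have EV in their titles, an abbreviation left unexplained in the labels, and it is not known here if a control construct was present in them. The way the shRNA was delivered, the age of the mice and the number of mice or cultures behind a library are not given in the labels, and the level of lncRNA-COX2 was not analysed here.

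DNA replication starts at origins that are licensed in G1, when the origin recognition complex, Cdc6 and Cdt1 load the Mcm2 to Mcm7 helicase onto DNA. At the start of S phase, kinases together with Mcm10, Cdc45 and the GINS complex turn the helicase on, and polymerases, the sliding clamp and the enzymes that make deoxynucleotides then copy the genome. Many of these genes are transcribed under the control of E2F factors, which are held back by retinoblastoma-family pocket proteins until cyclin and CDK activity releases them. Macrophages grown with M-CSF can divide in culture, and activation through Toll-like receptors is known to hold back their proliferation.

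The promoters below are shown because E2F-type letters stood in a larger share of them than among all genes. RefSeq promoter entries (GRCm38.p6, 250 bases before to 50 after a start site) existed for 33 of the 39 genes. The letters TTNNCGC, where each N is C or G, stood on either strand in the promoter of 21 of these 33 genes (63.6%), against 10.9% of the 27025 genes in the promoter table. The letters GGGCGG, a GC box, stood in 75.8% of the 33 genes and 38.2% of all genes, CCAAT in 57.6% and 41.1%, and TTTGAA, found in promoters of late cell cycle genes, in 18.2% and 20.2%, each on either strand. The promoters of the replication genes were also richer in G and C, with a median of 59.2% against 52.7%. A letter match is a description of the sequence and does not show binding.

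Below are the promoters of the 2 genes with the most negative and the 2 with the most positive Pam3Cys4 effect in the fit described further on (Tk1 and Ccne1, then Orc1 and Pola2), among those with an entry, followed by Pola1 and Mcm6, which were added after they were seen to hold the most E2F-type stretches. Each is written 5′ to 3′ on the strand of the gene, with E2F-type letters in capitals and overlapping matches joined.
Tk1 (chr11:117825965-117826264, minus strand): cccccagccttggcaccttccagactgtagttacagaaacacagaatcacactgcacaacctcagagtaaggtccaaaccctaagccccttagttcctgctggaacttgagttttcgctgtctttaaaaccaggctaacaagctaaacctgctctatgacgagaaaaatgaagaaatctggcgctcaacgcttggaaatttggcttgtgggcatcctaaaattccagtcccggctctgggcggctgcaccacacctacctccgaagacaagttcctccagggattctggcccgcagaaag
Ccne1 (chr7:38107441-38107740, minus strand): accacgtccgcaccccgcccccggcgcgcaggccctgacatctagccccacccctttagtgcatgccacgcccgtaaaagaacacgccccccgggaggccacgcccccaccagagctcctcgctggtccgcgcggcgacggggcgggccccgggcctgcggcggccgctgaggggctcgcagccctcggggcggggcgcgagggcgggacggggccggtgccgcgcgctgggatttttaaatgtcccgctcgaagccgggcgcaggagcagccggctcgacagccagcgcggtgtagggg
Orc1 (chr4:108579204-108579503, plus strand): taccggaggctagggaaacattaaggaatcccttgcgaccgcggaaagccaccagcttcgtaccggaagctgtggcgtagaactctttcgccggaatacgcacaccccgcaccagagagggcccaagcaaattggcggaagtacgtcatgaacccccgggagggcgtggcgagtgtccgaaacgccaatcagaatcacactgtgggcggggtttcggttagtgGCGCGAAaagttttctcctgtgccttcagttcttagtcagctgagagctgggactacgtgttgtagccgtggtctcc
Pola2 (chr19:5964157-5964456, minus strand): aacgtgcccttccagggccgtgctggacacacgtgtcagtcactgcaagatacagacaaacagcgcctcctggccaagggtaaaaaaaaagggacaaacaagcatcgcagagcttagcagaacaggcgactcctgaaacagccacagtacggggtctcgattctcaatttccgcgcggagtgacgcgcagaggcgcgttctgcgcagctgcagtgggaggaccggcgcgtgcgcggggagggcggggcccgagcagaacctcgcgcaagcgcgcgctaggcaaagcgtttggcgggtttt
Pola1 (chrX:93632106-93632405, minus strand): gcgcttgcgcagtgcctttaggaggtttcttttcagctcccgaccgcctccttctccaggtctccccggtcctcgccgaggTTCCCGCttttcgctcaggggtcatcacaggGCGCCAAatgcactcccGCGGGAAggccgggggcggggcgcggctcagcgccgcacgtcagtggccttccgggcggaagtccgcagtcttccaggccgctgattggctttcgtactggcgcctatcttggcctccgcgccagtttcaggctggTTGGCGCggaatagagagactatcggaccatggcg
Mcm6 (chr1:128359656-128359955, minus strand): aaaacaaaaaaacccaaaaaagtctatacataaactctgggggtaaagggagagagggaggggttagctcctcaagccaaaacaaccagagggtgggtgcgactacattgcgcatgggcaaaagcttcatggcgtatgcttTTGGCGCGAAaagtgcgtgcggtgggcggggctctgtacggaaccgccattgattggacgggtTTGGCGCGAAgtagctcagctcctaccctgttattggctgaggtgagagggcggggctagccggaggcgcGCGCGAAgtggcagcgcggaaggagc

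Tk1, Ccne1 and Pola2 held none of these E2F-type letters in this window, and Orc1 held 1, beginning at position -27 from the start site. Pola1 held 4 stretches, at -169, -138, -121 and 16, and Mcm6 held 3, at -109, -46 and 25. Without shRNA, the median log2 ratio of Pam3Cys4 over unstimulated, reported below, was -0.98 for the 21 genes with a match and -0.87 for the 12 genes without one. With shRNA these medians were -0.48 and -0.68, in the opposite order. A match of letters in this window does not show which genes E2F factors control, and a part of these factors in the ratios was not tested.

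The libraries held 59400238 (shRNA, Pam3Cys4), 65826838 (shRNA, unstimulated), 51979051 (no shRNA, Pam3Cys4) and 47385277 (no shRNA, unstimulated) reads in genes. The 12 macrophage markers summed to 10001, 7976, 9466 and 6649 CPM (the count scaled to library size) in the same order, and no marker was at 0. Without shRNA, 10 of the 12 reached 5 CPM in the higher library, and with shRNA all 12 did. Markers of myeloid progenitors summed to 0.218 to 0.401 CPM, with Elane and Kit at 0 in all 4 libraries. B cell, erythroid and fibroblast markers each summed to under 1 CPM, granulocyte markers to 0.255 to 12.1 CPM and T cell markers to 1.11 to 8.43 CPM. The libraries with shRNA stood apart from those without in ways that the labels do not describe. The Y-linked gene Ddx3y had 1116 and 921 counts with shRNA (Pam3Cys4 and unstimulated), against 4 and 3 without it. The 5 genes listed as Y-linked or Xist summed to 38.5 and 29.6 CPM with shRNA and to 0.257 and 0.134 CPM without. Xist was therefore also close to absent without shRNA, and these values do not give the sex of those cells. Interferon-stimulated genes were higher with shRNA too, all 10 of those listed after Pam3Cys4 and all 9 measured in unstimulated cells by at least 2-fold. Macrophage markers also differed between the shRNA states. After Pam3Cys4, 4 of 12 were at least 2-fold higher with shRNA and 1 lower (9.0% and 5.58% of all genes). In unstimulated cells, 2 of 11 measured were higher and 0 lower (7.0% and 4.82% of all genes). Each shRNA ratio below compares libraries that also differ in these genes, and their part in the results cannot be told apart from that of the shRNA. In bulk RNA, fewer cells in S phase and less transcript per cell cannot be told apart either.

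The 39 genes together took 0.2952% of gene reads after Pam3Cys4 and 0.5299% unstimulated with shRNA (exact 95% binomial intervals 0.2938 to 0.2966 and 0.5281 to 0.5316). Without shRNA they took 0.2565% after Pam3Cys4 and 0.5604% unstimulated (0.2551 to 0.2579 and 0.5582 to 0.5625). Replication genes thus took a smaller share of the reads in each stimulated library than in either unstimulated one. These and all later intervals cover counting error only, because no group had a second library.

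Replication genes were lower after Pam3Cys4 in both shRNA states. For 33 of the 39 genes, both stimulated libraries lay below both unstimulated ones, an order that 24.1% of 9559 genes tested showed. The 6 genes whose stimulated and unstimulated libraries overlapped were Orc1, Cdt1, Mcm10, Pola2, Pcna and E2f2. No replication gene had both stimulated libraries above both unstimulated ones, where 24.9% of genes tested did.

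**Figure D1:**
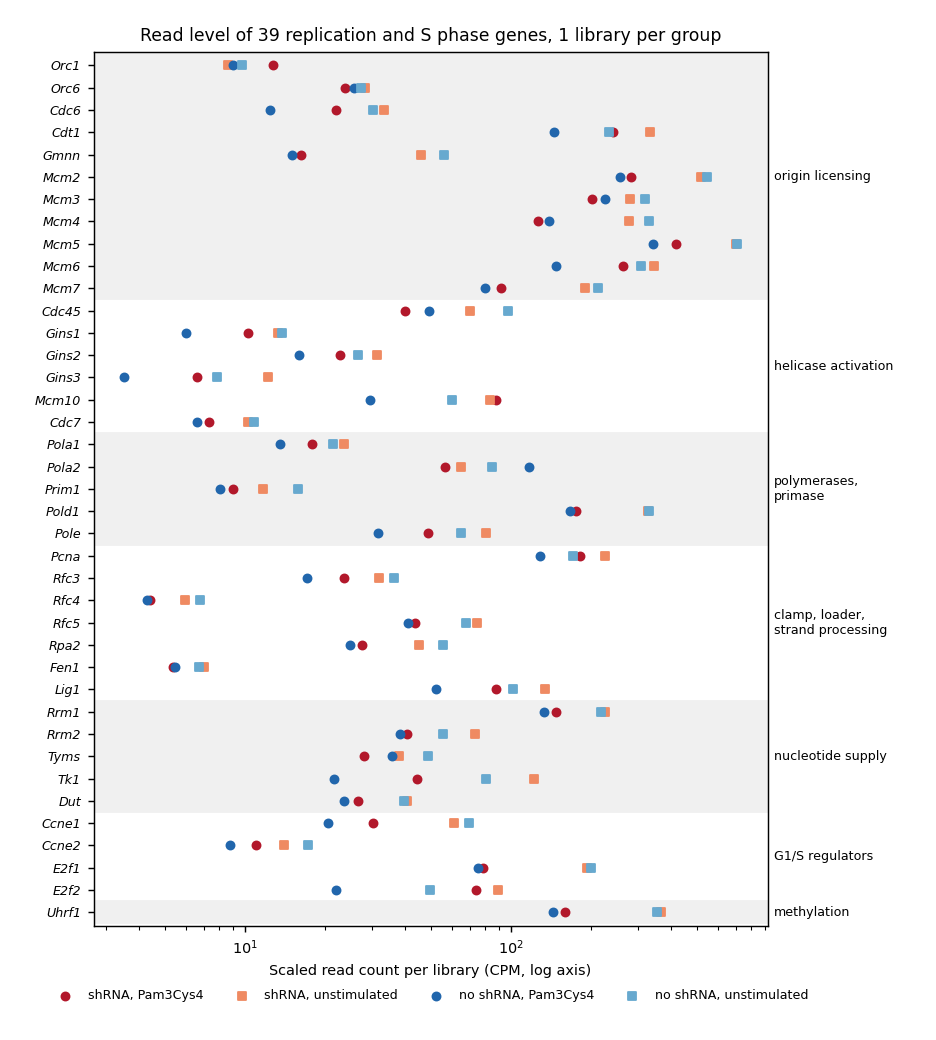
Scaled read counts of the 39 genes (CPM, log axis), grouped by role from origin licensing at the top to Uhrf1 at the bottom, with 1 point per library (circles, Pam3Cys4; squares, unstimulated; red and orange, with shRNA; blue, without). In 33 of the 39 rows both circles lie left of both squares.

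Without shRNA, 18 of the 39 genes were at least 2-fold lower after Pam3Cys4, where 6.51% of 9555 genes measured were, and 0 were at least 2-fold higher, where 7.07% were. A gene counted as measured at 5 CPM or more in the higher library, and as 2-fold lower or higher only if the counting interval excluded equality. The median log2 ratio of the 39 genes was -0.99, against -0.00 for all genes measured. The ratio was below 1 for 38 genes, for 36 of them with an interval that excluded 1, as 42.5% of all genes had. The ratio of 1 gene, Pola2, was above 1 with such an interval, as was that of 42.0% of all genes. With shRNA, 7 of the 39 genes were at least 2-fold lower after Pam3Cys4, where 3.53% of 9601 genes were, and 0 were at least 2-fold higher, where 6.3% were. The median log2 ratio was -0.60, against 0.02 for all genes, and 37 genes had a ratio below 1 with an interval excluding 1, as 41.0% of all genes had. The ratios of 2 genes, Orc1 and Mcm10, were above 1 with such an interval, as 43.3% of all genes had. The 7 genes, Gmnn, Mcm4, Mcm7, Tk1, Ccne1, E2f1 and Uhrf1, were all among the 18 without shRNA.

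The only test that the 4 libraries allow treats the shRNA states as repeats of each other in an additive fit of stimulation and shRNA (edgeR's quasi-likelihood test with Benjamini-Hochberg adjustment over 9559 genes). In that fit, 23 of the 39 genes fell after Pam3Cys4 and 0 rose, against 10.9% of all genes tested that fell and 11.9% that rose. The same shares, 10.9% and 11.9%, stand beside every count below of genes that fell or rose after Pam3Cys4 in the fit. The median log2 fold change of the 39 genes was -0.73, against 0.00 for all genes. Of the 18 genes at least 2-fold lower without shRNA, 13 fell in the fit. The other 5, Mcm6, Mcm10, Gins1, Rfc3 and E2f2, did not pass the test. A further 10 genes fell in the fit without reaching 2-fold in either state. The fit had 1 residual degree of freedom, and its p-values do not cover the spread between separately grown cultures.

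Origin licensing genes, with 11 of the 39 members, summed to 1699 CPM after Pam3Cys4 and 2761 CPM unstimulated with shRNA, and to 1397 and 2780 CPM without. Of these 11 genes, 8 fell in the fit. Gmnn encodes geminin, which binds Cdt1 and blocks relicensing after S phase has begun. With shRNA it had 16.2 CPM after Pam3Cys4 against 45.9 CPM unstimulated, and without shRNA 15 against 56.1 CPM. Both stimulated libraries were well below both unstimulated ones, 2.83-fold lower with shRNA (95% interval 2.62 to 3.05) and 3.73-fold lower without (3.44 to 4.04). Geminin had the most negative fold change of the 39 genes in the fit, with a log2 value of -1.70 (SE 0.16, edgeR adjusted p = 0.00684).

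The helicase subunits Mcm2 to Mcm7 are loaded in equal numbers as a ring, but their transcripts were not equally lower. Mcm7 had 91.4 CPM after Pam3Cys4 against 189 CPM unstimulated with shRNA, and 80.0 against 213 CPM without, 2.07-fold and 2.66-fold lower (log2 fold change -1.23, edgeR adjusted p = 0.0102). Mcm4 had 126 against 277 CPM with shRNA and 139 against 329 CPM without, 2.2-fold and 2.37-fold lower (edgeR adjusted p = 0.0071). Mcm3 lay at the other end, with 201 against 281 CPM and 225 against 320 CPM, only 1.40-fold and 1.42-fold lower (edgeR adjusted p = 0.0389). The subunits therefore differed among themselves in the size of the ratio, while the order of stimulated below unstimulated libraries was the same in all 6. Mcm5, which had the most reads per length of the 39 genes, had 418 against 702 CPM with shRNA and 341 against 706 CPM without, and fell (edgeR adjusted p = 0.017). Mcm2 had 283 against 517 CPM and 257 against 546 CPM, and fell as well (edgeR adjusted p = 0.0122). Mcm6 was 2.10-fold lower without shRNA, at 148 against 309 CPM, but 1.32-fold lower with it, at 263 against 346 CPM, and did not pass the test (edgeR adjusted p = 0.0547).

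The loaders of the helicase behaved differently from each other. Cdc6, the ATPase that joins the origin recognition complex, had 22.0 CPM after Pam3Cys4 against 33.4 CPM unstimulated with shRNA and 12.4 against 30.2 CPM without. It was 1.51-fold and 2.43-fold lower and fell in the fit (edgeR adjusted p = 0.0375). Cdt1, its partner in loading, had 242 against 333 CPM with shRNA and 145 against 234 CPM without. Its stimulated library with shRNA was thus slightly above the unstimulated library without, so that the stimulated and unstimulated libraries overlapped, although within each shRNA state it was lower after Pam3Cys4 (edgeR adjusted p = 0.0349). Orc1, the largest subunit of the origin recognition complex, had 12.8 against 8.66 CPM with shRNA and 9.05 against 9.73 CPM without. It was 1.47-fold higher after Pam3Cys4 with shRNA (1.32 to 1.65), while the interval without shRNA included equality. Orc6, another subunit of that complex, stayed within 23.7 to 28.2 CPM in the 4 libraries. Neither Orc1 nor Orc6 passed the test (edgeR adjusted p = 0.465 and 0.39).

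**Figure D2:**
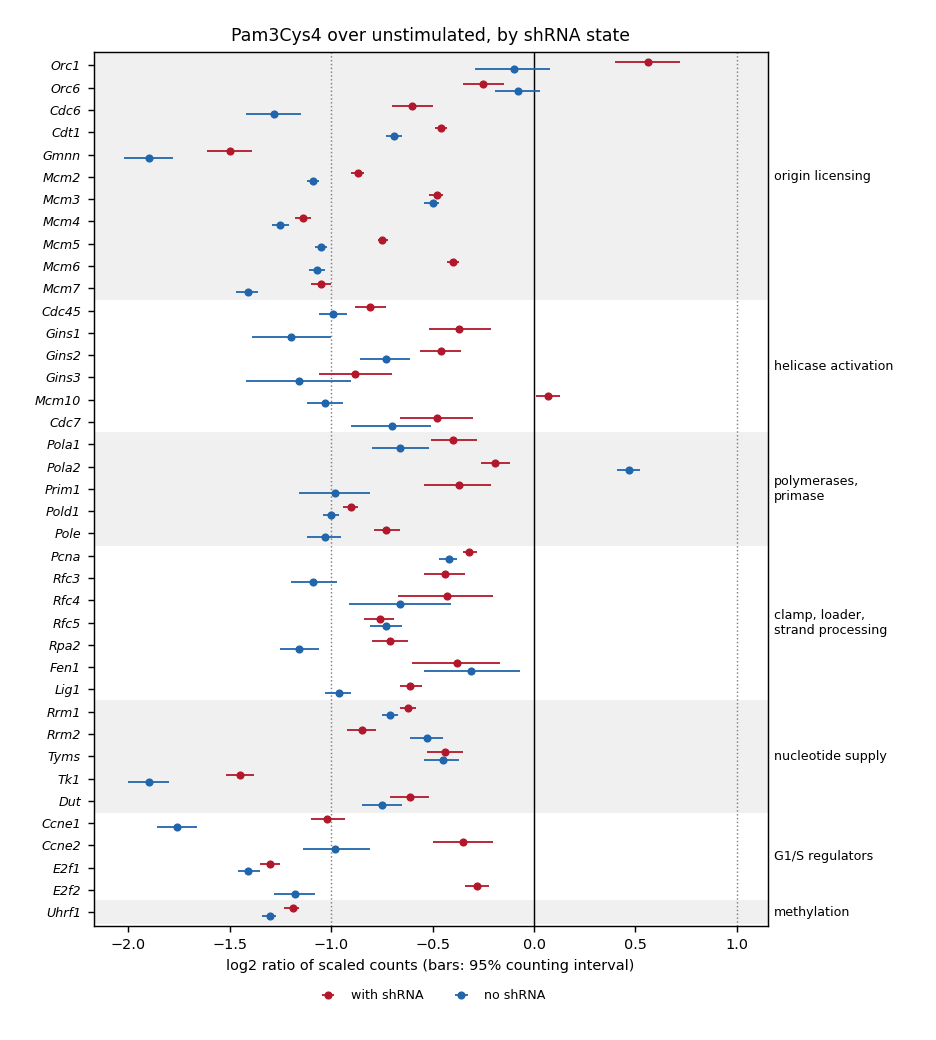
Log2 ratio of scaled counts, Pam3Cys4 over unstimulated, for each of the 39 genes with shRNA (red) and without (blue), where bars are 95% counting intervals and dotted lines mark a 2-fold ratio. Most points lie left of 0 in both states, and Orc1 and Mcm10 with shRNA and Pola2 without shRNA lie right of it.

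The genes that turn the loaded helicase on summed to 175 CPM after Pam3Cys4 and 221 CPM unstimulated with shRNA, and to 111 and 217 CPM without. Of these 6 genes 3 fell in the fit, Cdc45, Gins2 and Gins3. Cdc45, which rides with the helicase at the fork, had 40.0 against 70.1 CPM with shRNA and 49.1 against 97.6 CPM without, 1.75-fold and 1.99-fold lower (edgeR adjusted p = 0.0154). Gins3, a subunit of the GINS complex, had 6.63 against 12.2 CPM with shRNA and 3.52 against 7.88 CPM without (edgeR adjusted p = 0.0238). Gins1, a second subunit, had 10.3 against 13.3 CPM and 6.02 against 13.8 CPM, 1.29-fold and 2.29-fold lower, without passing the test (edgeR adjusted p = 0.083). The subunits thus had lower levels after Pam3Cys4 in each state, but by unequal amounts. Gins2, also of this complex, had 22.8 against 31.4 CPM and 16.0 against 26.6 CPM and fell (edgeR adjusted p = 0.0458), and it shares 67.3% of its exon bases with Gse1 on the opposite strand. The strand setting of the counting is not given in the sources used here, so its reads and those of Gse1 may not be separated. Cdc7, the catalytic subunit of the kinase that phosphorylates the Mcm ring, had 7.36 against 10.3 CPM and 6.63 against 10.8 CPM (edgeR adjusted p = 0.0656).

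Mcm10, which helps the activated helicase open DNA, did not follow the rest. With shRNA it had 87.6 CPM after Pam3Cys4 and 83.5 CPM unstimulated, and without shRNA 29.4 and 60.0 CPM. The stimulated library without shRNA was the lowest of the 4, 2.04-fold below the unstimulated one (1.92 to 2.17), while with shRNA the stimulated library was 1.05-fold higher (1.01 to 1.09). The sign of the second ratio turned when libraries were scaled by their totals alone, to a log2 value of -0.06 from 0.07.

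Polymerase and primase genes summed to 307 CPM after Pam3Cys4 and 507 CPM unstimulated with shRNA, and to 336 and 518 CPM without, and 2 of the 5 fell. Pold1, the catalytic subunit of the lagging strand polymerase delta, had 175 against 326 CPM with shRNA and 166 against 331 CPM without. It was 1.87-fold lower with shRNA and, just short of the threshold, 2.0-fold lower after rounding without, and it fell in the fit (edgeR adjusted p = 0.0111). Pole, the catalytic subunit of the leading strand polymerase epsilon, had 48.6 against 80.4 CPM with shRNA and 31.7 against 64.8 CPM without, and fell (edgeR adjusted p = 0.0193). The polymerase that synthesises primers is polymerase alpha with its primase, and its catalytic subunits did not pass the test. Pola1, the catalytic subunit of polymerase alpha, had 17.9 against 23.6 CPM with shRNA and 13.6 against 21.5 CPM without (edgeR adjusted p = 0.0641). Prim1, that of primase, had 9.05 against 11.7 CPM and 8.08 against 15.9 CPM (edgeR adjusted p = 0.0777).

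Pola2, the accessory subunit of polymerase alpha, ran against its partners. It had 56.5 CPM after Pam3Cys4 and 64.6 CPM unstimulated with shRNA, and 117 and 84.8 CPM without. The highest library was the stimulated one without shRNA, 1.38-fold above its unstimulated counterpart (1.33 to 1.44), and with shRNA the ratio was 1.14-fold lower (1.09 to 1.2). Pola2 was the only one of the 39 genes with a ratio above 1 without shRNA. In the fit its log2 fold change for Pam3Cys4 was 0.14 (SE 0.19, edgeR adjusted p = 0.618).

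The clamp, its loader and strand processing genes had median log2 ratios of -0.44 with shRNA and -0.73 without, and 3 of the 7 fell (Rfc5, Rpa2 and Lig1). Pcna, the sliding clamp itself, had 181 against 226 CPM with shRNA and 128 against 171 CPM without, 1.25-fold and 1.34-fold lower (edgeR adjusted p = 0.0755). Its libraries overlapped, since the stimulated one with shRNA lay above the unstimulated one without. Rpa2, a subunit of the complex that coats single-stranded DNA, had 27.5 against 45.0 CPM with shRNA and 24.8 against 55.3 CPM without, and fell (edgeR adjusted p = 0.0225). Lig1, the ligase that seals Okazaki fragments, had 87.8 against 134 CPM and 52.4 against 102 CPM, and fell (edgeR adjusted p = 0.0252). For both genes the stimulated libraries lay below the unstimulated ones in each state. The clamp loader showed unequal ratios among its subunits. Rfc5 had 43.7 against 74.3 CPM with shRNA and 41.0 against 67.8 CPM without, and fell (edgeR adjusted p = 0.0198). Rfc3 had 23.6 against 32.0 CPM with shRNA and 17.1 against 36.4 CPM without, 1.35-fold and 2.12-fold lower, and did not pass the test (edgeR adjusted p = 0.0535). Rfc4 was low in all libraries, with 4.41 against 5.94 CPM and 4.30 against 6.77 CPM (edgeR adjusted p = 0.0932). Fen1, the flap nuclease, had 5.37 against 7.01 CPM and 5.44 against 6.73 CPM (edgeR adjusted p = 0.197), and 78.8% of its exon bases are shared with an antisense gene, Gm10143, so its low counts are uncertain.

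Among the 5 nucleotide supply genes 4 fell, and they summed to 287 CPM after Pam3Cys4 and 500 CPM unstimulated with shRNA, and to 252 and 443 CPM without. Tk1, the thymidine kinase of the salvage route, stood apart from the rest. It had 44.5 against 122 CPM with shRNA and 21.6 against 80.7 CPM without, 2.73-fold (2.61 to 2.86) and 3.73-fold (3.49 to 4.0) lower. Its fitted log2 fold change was -1.67 (SE 0.16, edgeR adjusted p = 0.00738). The subunits of ribonucleotide reductase, which makes deoxynucleotides, had smaller ratios. Rrm1, the large subunit, had 147 against 226 CPM with shRNA and 133 against 218 CPM without (edgeR adjusted p = 0.0213). Rrm2, the S phase subunit, had 40.6 against 73.1 CPM and 38.3 against 55.3 CPM, 1.8-fold and 1.44-fold lower (edgeR adjusted p = 0.0325). Unlike most of the 39 genes, Rrm2 was farther from equality with shRNA than without. Dut, which removes dUTP, had 26.6 against 40.6 CPM and 23.6 against 39.7 CPM (edgeR adjusted p = 0.0272). Tyms, which makes thymidylate from deoxyuridylate, had 28.0 against 37.9 CPM and 35.6 against 48.7 CPM, 1.36-fold lower with shRNA and 1.37-fold lower without, and did not pass the test (edgeR adjusted p = 0.0605).

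The 4 regulators of the G1 to S transition had the most negative median without shRNA of the groups with more than 1 gene, a log2 ratio of -1.29, against -0.68 with shRNA, and 2 fell. E2f1, an activating E2F factor, had 78.5 against 193 CPM with shRNA and 74.9 against 199 CPM without. Its stimulated libraries were nearly equal to each other, as were its unstimulated ones, and it was 2.46-fold and 2.65-fold lower (log2 fold change -1.35, SE 0.11, edgeR adjusted p = 0.00578). Ccne1, cyclin E1, which activates CDK2, had 30.3 against 61.3 CPM with shRNA and 20.5 against 69.4 CPM without, 2.02-fold and 3.38-fold lower (edgeR adjusted p = 0.0178). Ccne2, cyclin E2, had 11 against 14 CPM and 8.79 against 17.3 CPM, 1.27-fold and 1.97-fold lower (edgeR adjusted p = 0.082). Both E-type cyclins were thus farther below equality without shRNA than with it. E2f2, another activating E2F, had 73.6 against 89.3 CPM with shRNA and 22.0 against 49.8 CPM without, 1.21-fold and 2.27-fold lower (edgeR adjusted p = 0.0913). For E2f2 the stimulated library with shRNA lay above the unstimulated one without.

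Uhrf1 recruits the maintenance DNA methyltransferase to newly copied DNA. It had 160 against 366 CPM with shRNA and 144 against 355 CPM without, 2.29-fold (2.23 to 2.34) and 2.47-fold (2.40 to 2.54) lower, and fell (log2 fold change -1.25, SE 0.11, edgeR adjusted p = 0.00665). Like E2f1, it showed nearly the same ratio in both shRNA states.

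Per length of exon, levels spanned a wide range in the unstimulated library without shRNA. Mcm5 led with 177 CPM per kilobase of exon, followed by Mcm4 with 91.6, Mcm3 with 85.3, Uhrf1 with 83.4 and Mcm2 with 78.4. Pola1 was lowest with 2.44, and Cdc7 (2.58), Fen1 (2.78) and Orc1 (2.80) lay just above it. These levels rest on exon lengths of the GENCODE vM21 annotation, which is newer than the build of the counts, so they are approximate.

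The stimulation ratios of the 39 genes in the shRNA states come from separate libraries, and over the 39 genes they had a Pearson r of 0.707 and a Spearman rho of 0.63. These describe genes that share library scaling, and genes are no replicates. Over 9142 genes measured in both states, r was 0.865 and rho 0.791. The sign of the ratio was the same in both states for 36 of the 39 genes (92.3%), the exceptions being Orc1, Mcm10 and Pola2, and for 80.4% of all genes. The ratio lay closer to equality with shRNA than without for 34 of the 39, and the share of all genes with this was not counted. Among all genes measured, those at least 2-fold lower after Pam3Cys4 were also fewer with shRNA, at 3.53% against 6.51% without.

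Dividing the stimulation ratio with shRNA by that without gives a ratio of ratios. It was above 1 for 34 of the 39 genes and for 5235 of 9857 genes measured. These 34 are not the same set as the 34 closer to equality with shRNA, which include Pola2 and leave out Orc1. The 95% interval of the ratio of ratios lay above 1 for 28 genes, where 35.2% of 9857 genes had this. It lay below 1 for 3, Orc6, Pola2 and Rrm2, where 30.6% had this. The median log2 value was 0.26, against 0.02 for all genes, so the lower levels after Pam3Cys4 were on the whole less pronounced in the libraries with shRNA. This was not particular to the 39 genes. Among related lists described below, the median was 0.47 for fork protection and S phase checkpoint, 0.45 for homologous recombination and 0.37 for mitosis. It was 0.22 for chromatin assembly and methylation, 0.18 for other replisome genes and -0.04 for other nucleotide supply genes. Of the 39 genes, Mcm10 had the highest value, a log2 of 1.10 (0.99 to 1.2), and was the only one 2-fold or more above 1, where 1.94% of all genes were. None was as far below 1, where 1.64% of all genes were. E2f2 followed with 0.90 (0.78 to 1.02), Gins1 with 0.83 (0.58 to 1.07) and Ccne1 with 0.74 (0.61 to 0.87). Pola2 had the lowest, -0.66 (-0.75 to -0.57). The members with the steadiest ratios included Mcm3 (0.02), Tyms (0.01), Pold1 (0.09), E2f1 (0.11) and Uhrf1 (0.11). With 1 library per group, the difference between the states was not tested against replicates.

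Set against the cells without shRNA, the unstimulated cells with shRNA had 0 of 39 replication genes at least 2-fold higher or lower, where 7.0% and 4.82% of 9651 genes were. The ratio was above 1 for 19 genes and below 1 for 20, with an interval excluding 1 for 16 and 14 of them, against 43.3% and 38.1% of all genes, and with a median log2 of -0.01 against 0.02 for all genes. Scaling by library totals alone gave 14 above and 25 below. E2f2 was farthest above, at 89.3 CPM with shRNA against 49.8 CPM without (1.79-fold higher, 1.71 to 1.88), followed by Gins3 (1.54-fold) and Tk1 (1.51-fold). Cdc45 was farthest below, at 70.1 against 97.6 CPM (1.39-fold lower), followed by Prim1 and Pola2 (1.36-fold and 1.31-fold lower). Among the genes close to equal were Mcm5 with 702 against 706 CPM and Pold1 with 326 against 331 CPM.

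After Pam3Cys4, 3 of the 38 replication genes measured were at least 2-fold higher with shRNA than without, where 9.0% of 9702 genes were, and 1 was at least 2-fold lower, where 5.58% of genes were. Neither count was above the share of all genes. Rfc4 was left out by the 5 CPM filter, with 4.41 CPM with shRNA and 4.30 CPM without. The genes past 2-fold were E2f2 (73.6 against 22.0 CPM, 3.35-fold higher, 3.13 to 3.58), Mcm10 (87.6 against 29.4 CPM, 2.98-fold higher, 2.81 to 3.16), Tk1 (44.5 against 21.6 CPM, 2.06-fold higher, 1.92 to 2.21) and Pola2 (56.5 against 117 CPM, 2.07-fold lower, 1.99 to 2.17). The ratio was above 1 for 31 genes, for 27 of them with an interval excluding 1, as 45.9% of all genes had, and below 1 with such an interval for 6, as 38.1% of all genes had. The median log2 ratio was 0.18, against 0.05 for all genes. By group, the median was 0.65 for helicase activation and 0.45 for the G1 to S regulators, against 0.14 for nucleotide supply and 0.16 for polymerases and primase.

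In the additive fit, the shRNA effect passed the test for 4 of the 39 genes, all of which rose, against 12.3% of all genes that rose and 8.66% that fell. The count of 4 is near the share of all genes that rose. These 4 genes were E2f2 (log2 fold change 1.29, SE 0.24, edgeR adjusted p = 0.0266), Cdt1 (0.62, SE 0.12, adjusted p = 0.0287), Tk1 (0.81, SE 0.16, adjusted p = 0.0289) and Gins3 (0.76, SE 0.18, adjusted p = 0.0448). Each was higher with shRNA in both the stimulated and the unstimulated library, Cdt1 by 1.67-fold and 1.42-fold and Gins3 by 1.88-fold and 1.54-fold. Gins3 did not pass under library totals alone or in DESeq2. Mcm10, at 1.02 (SE 0.29), and Pola2, at -0.72 (SE 0.19), did not pass (edgeR adjusted p = 0.0683 and 0.0613). Over 38 genes, the shRNA ratios of stimulated and unstimulated cells, which come from separate libraries, had r 0.744 and rho 0.638, and 22 (57.9%) had the same sign in both. Over 9339 genes measured in both, r was 0.929 and rho 0.762, and 78.2% had the same sign.

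**Figure D3:**
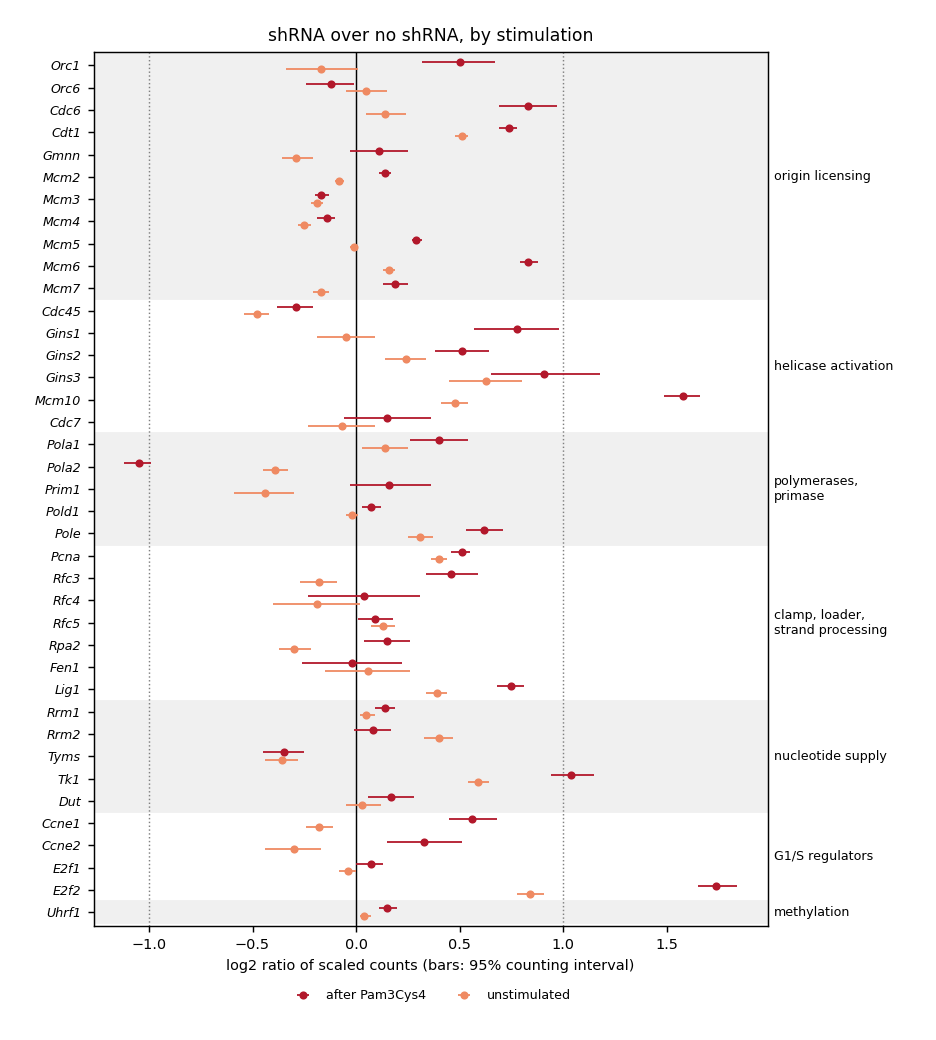
Log2 ratio of scaled counts, shRNA over no shRNA, for each of the 39 genes after Pam3Cys4 (dark red) and unstimulated (orange), where bars are 95% counting intervals and dotted lines mark a 2-fold ratio. The orange points scatter around 0, and E2f2, Mcm10 and Tk1 after Pam3Cys4 lie past 2-fold on the right and Pola2 on the left.

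Other genes of the pathway were read from lists that had been chosen with earlier results of these data known. Of 31 other replisome genes, 13 fell after Pam3Cys4 in the fit and 0 rose, against 10.9% and 11.9% of all genes tested. Their median log2 ratios were -0.38 with shRNA and -0.62 without. Wdhd1, which links the helicase to polymerase alpha, had 20.5 against 48.9 CPM with shRNA and 14.6 against 49.6 CPM without (2.39-fold and 3.39-fold lower, edgeR adjusted p = 0.0104). Rpa1, the large subunit of the complex that holds Rpa2, had 124 against 256 CPM and 150 against 352 CPM (2.06-fold and 2.34-fold lower, edgeR adjusted p = 0.00855). Top1, the topoisomerase that relaxes supercoils, was higher, at 130 against 106 CPM with shRNA and 115 against 90.3 CPM without, and did not pass the test (edgeR adjusted p = 0.0971).

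Homologous recombination genes had a lower median without shRNA than the replication genes themselves, at -1.23, and -0.71 with shRNA, and 9 of the 12 fell. Exo1, a nuclease that resects DNA ends, had 19.3 against 39.4 CPM with shRNA and 20.1 against 52.0 CPM without (edgeR adjusted p = 0.0118). Chromatin assembly and methylation genes had medians of -0.67 with shRNA and -0.84 without, and 6 of 11 fell. Dnmt1, the methyltransferase that Uhrf1 recruits, had 256 against 480 CPM with shRNA and 161 against 346 CPM without (1.88-fold and 2.14-fold lower, edgeR adjusted p = 0.0112). Of 13 fork protection and S phase checkpoint genes tested 4 fell, with medians of -0.05 and -0.53, and Clspn, the checkpoint adaptor claspin, was 2.0-fold and 2.41-fold lower (edgeR adjusted p = 0.0116). Of 18 mitosis genes 6 fell, and the medians were -0.24 with shRNA and -0.63 without. None of the genes in these lists rose in the fit, in which 10.9% of all genes tested fell and 11.9% rose.

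Of 7 other E2F and DP factors tested, 4 fell and 0 rose, and 6 of the 7 had a ratio below 1 in each shRNA state. E2f8, a repressive E2F that is itself made in S phase, had 28.2 against 58.4 CPM with shRNA and 13.6 against 54.1 CPM without (2.07-fold and 3.96-fold lower, edgeR adjusted p = 0.0213). E2f7, its close relative, was 2.29-fold and 3.23-fold lower (edgeR adjusted p = 0.0127), and Tfdp2, a dimer partner of E2F factors, 2.61-fold and 4.40-fold lower (edgeR adjusted p = 0.014). E2f4, a repressor bound in resting cells, had 237 against 219 CPM and 260 against 211 CPM and did not pass the test (edgeR adjusted p = 0.251).

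Among upstream genes, 1 of 8 D cyclins, A cyclin and kinases tested fell after Pam3Cys4 in the fit (Cdk2) and 1 rose (Cdk6). Of 8 CDK inhibitors and pocket proteins 2 fell (Cdkn2c and Rbl2) and 0 rose, and of 6 growth genes 2 rose (Myc and Odc1) and 0 fell. Over all genes tested, 10.9% fell and 11.9% rose. The counts of 1 in 8 are near these shares, and no list this short was tested against them. Myc, a growth-promoting transcription factor, rose, with 42.8 against 11.5 CPM with shRNA and 36.3 against 17.6 CPM without (3.74-fold and 2.06-fold higher, edgeR adjusted p = 0.0199). Ccnd1, cyclin D1, which starts the release of E2F, had 690 against 591 CPM with shRNA and 568 against 1079 CPM without, 1.17-fold higher and 1.90-fold lower (edgeR adjusted p = 0.41). Ccnd2, cyclin D2, had 1.99 and 2.30 CPM with shRNA (Pam3Cys4 and unstimulated) against 196 and 312 CPM without, and its shRNA effect passed the test (log2 fold change -6.86, edgeR adjusted p = 0.000421). Cdkn2b, the CDK inhibitor p15, was also lower with shRNA, at 8.62 and 7.65 CPM against 53.7 and 45.0 CPM (log2 fold change -2.60, edgeR adjusted p = 0.000792). Between the unstimulated libraries, cyclin D2 was thus 136-fold lower with shRNA while the 39 replication genes had a median log2 ratio of -0.01.

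Of 24 nucleotide supply genes outside the 39, 6 fell after Pam3Cys4 and 3 rose in the fit (10.9% and 11.9% of all genes tested), with median log2 ratios of -0.03 with shRNA and -0.24 without. Those that fell included Dctd, Paics and Dtymk, and those that rose were Cmpk2, Mthfd2 and Nme1. Dctd, a deoxycytidylate deaminase, had 46.2 against 78.2 CPM with shRNA and 70.6 against 128 CPM without (edgeR adjusted p = 0.0168). Dtymk, the thymidylate kinase, had 51.4 against 106 CPM with shRNA and 107 against 156 CPM without (edgeR adjusted p = 0.0322). Samhd1, which degrades deoxynucleotides, had 576 CPM after Pam3Cys4 and 311 CPM unstimulated with shRNA, and 90.5 and 107 CPM without, and its shRNA effect passed the test (log2 fold change 2.10, edgeR adjusted p = 0.012). Dck, the deoxycytidine kinase of the salvage route, had 67.7 and 54.9 CPM with shRNA against 11.5 and 20.4 CPM without (log2 fold change for shRNA 1.99, edgeR adjusted p = 0.014). Cmpk2, a mitochondrial nucleotide kinase that is also an interferon-stimulated gene, had 1121 and 219 CPM with shRNA against 20.4 and 1.67 CPM without. Mthfd2, of mitochondrial folate metabolism, rose after Pam3Cys4, with 192 against 114 CPM with shRNA and 280 against 153 CPM without (edgeR adjusted p = 0.015).

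**Figure D4:**
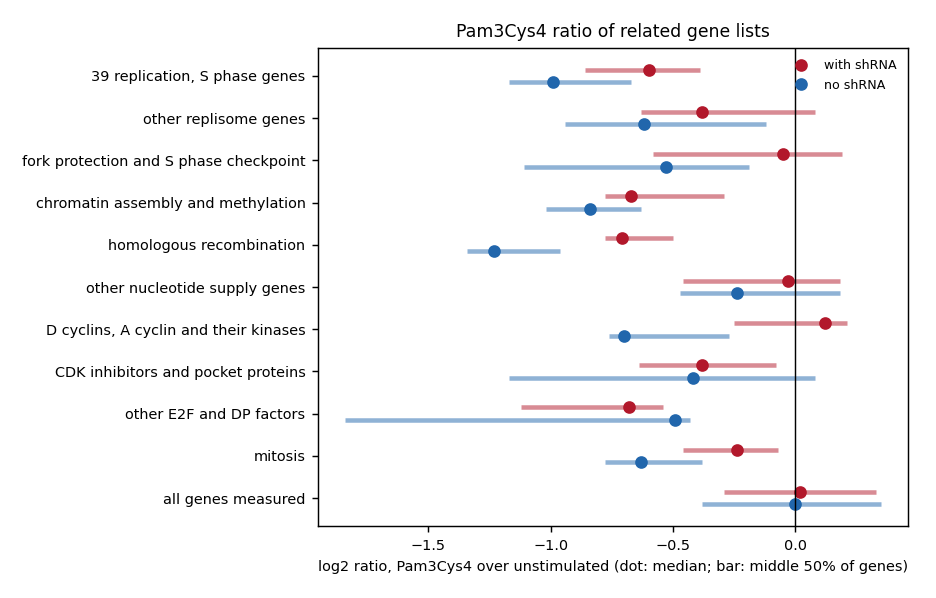
Median log2 ratio of Pam3Cys4 over unstimulated (dots) with the middle 50% of genes (bars) for the 39 replication genes, 9 lists of related genes and all genes measured, with shRNA (red) and without (blue). The medians of the replication genes are -0.60 and -0.99, and those of all genes are at 0.02 and -0.00.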

How the data were processed

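The 4 mRNA-seq libraries, 1 per group, were read at 50 bp. The submitters' processing notes name CASAVA 1.8, TopHat, HTSeq and the build NCBIM37. For TopHat and HTSeq no version is known, and neither the annotation release nor the strand setting is given in the sources used here. As deposited by the authors, each table holds whole-number read counts, 1 per gene. Lines that name no gene held 32.5 to 34.4% of the totals (27.0 to 29.9% for alignments to several places) and were left out, so genes with close copies are undercounted. The pseudogene Pcna-ps2 held 571, 626, 390 and 525 counts (shRNA Pam3Cys4, shRNA unstimulated, no shRNA Pam3Cys4, no shRNA unstimulated), and its reads may not be separable from those of Pcna. Exons of 12 of the 39 genes overlap those of another gene.

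Gene names, exon lengths and overlaps came from GENCODE vM21 and promoters from RefSeq, both on a newer build than the counts. Scaling used TMM factors of edgeR 4.0.16 (0.924, 1.01, 0.972 and 1.1, in the order above) in R 4.3.3. Ratios of scaled counts carry exact conditional binomial 95% intervals and no p-value, and were read where the higher library reached 5 CPM. A gene was called at 2-fold when the interval left out equality, and a library at 0 was set to 3 counts. For the ratio of ratios, every library had to hold at least 10 counts, and intervals came from the delta method. The additive model of edgeR (quasi-likelihood F test) took genes with 5 CPM in 2 or more libraries, and p-values were adjusted by Benjamini-Hochberg and read at 0.05. Its residual degrees of freedom were 1 and its prior degrees of freedom 3.76, with a biological coefficient of variation of 0.137, and any interaction entered its error. Standard errors were the absolute log2 fold change over the square root of F. The procedures were also run on simulated counts that held no shRNA effect. Those runs do not test the use of the shRNA states as repeats. DESeq2 1.42.0, other scalings, filters and thresholds were tried as alternatives.

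The 39 genes and the 11 lists of other pathway genes (153 of 154 genes matched to a row) were chosen with earlier results of these data known. All 39 genes are named, and of each list up to 4 genes with the largest absolute log2 ratio in a comparison and at least 5 CPM, with fewer printed. Genes of the lists outside these ranks (such as Dnmt1, E2f4 and Dck) and Ddx3y were named after their values were seen.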

Additional observations from a re-analysis of the deposited data

Results flagged for a closer look

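The difference between shRNA states in the Pam3Cys4 ratio, and between stimulation states in the shRNA ratio, was not tested against replicates, since each group had 1 library. Of the 39 replication genes, 2 had Pam3Cys4 ratios on opposite sides of equality in the shRNA states, with both counting intervals excluding equality. The log2 ratio of Mcm10 was 0.07 with shRNA and -1.03 without, and that of Pola2 was -0.19 with shRNA and 0.47 without. As described above, the sign of the Mcm10 ratio with shRNA turned when libraries were scaled by their totals alone. How many of all genes had such opposite ratios was not counted. The Pam3Cys4 ratio had the same sign in both shRNA states for 80.4% of 9142 genes and for 92.3% of the 39.

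A further 7 genes had shRNA ratios on opposite sides of equality in the stimulation states, in each case higher with shRNA after Pam3Cys4 and lower with shRNA in unstimulated cells. The largest gap was that of Ccne1, cyclin E1, with log2 ratios of 0.56 after Pam3Cys4 and -0.18 unstimulated. Rfc3, a clamp loader subunit, had 0.46 and -0.18, and Ccne2, cyclin E2, had 0.33 and -0.30. Rpa2, of the complex on single-stranded DNA, had 0.15 and -0.30. The helicase subunits Mcm7 and Mcm2 had 0.19 and -0.17, and 0.14 and -0.08. E2f1 had 0.07 and -0.04, a gap near the counting error at this depth. Scaling by library totals alone shifts the median shRNA ratio of all genes after Pam3Cys4 by -0.074. That is about as far as the E2f1 ratio of 0.07 lies from equality, so its opposite signs depend on the scaling. The number of all genes with such opposite shRNA ratios was not counted either. The shRNA ratio had the same sign in both stimulation states for 78.2% of 9339 genes and for 57.9% of the 38 replication genes measured.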

How the results depend on the processing

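The additive fit blocks on the shRNA state, and beyond it no paired analysis was possible because each group had 1 library and so no replicate numbers to pair, and no replicate could be left out. No called value changed sign under the alternatives tried. Scaling by library totals alone, which shifts the median of all genes by -0.134 (with shRNA) and -0.184 (no shRNA) for Pam3Cys4 and by -0.074 (after Pam3Cys4) and -0.122 (unstimulated) for shRNA, gave member medians of -0.73 for Pam3Cys4 with shRNA, -1.17 without, -0.13 for shRNA in unstimulated cells and -0.89 in the additive fit. There, 2023 genes, 34 of them members against 23 in the main fit, fell after Pam3Cys4. With shRNA 1260 genes fell, 1 of them a member. At a threshold of 1.5-fold, members lower after Pam3Cys4 were 20 with shRNA and 31 without, members higher with shRNA were 10 after Pam3Cys4 and 3 unstimulated, and for the ratio of ratios 10 were higher and 1 lower. Over all genes at 1.5-fold, higher and lower counts were 1301 and 1053 (Pam3Cys4 with shRNA), 1455 and 1493 (Pam3Cys4 without), 1654 and 1167 (shRNA after Pam3Cys4), 1277 and 985 (shRNA unstimulated) and 711 and 563 (ratio of ratios). With no filter these counts at 2-fold were 1289 and 892, 1332 and 1242, 1610 and 1449, and 1318 and 1482 for the first 4. At a 20 CPM filter, 193 and 382 genes were lower after Pam3Cys4 (with and without shRNA), and with shRNA 571 were higher and 325 lower after Pam3Cys4 and 424 higher and 220 lower unstimulated. In the unfiltered additive fit 2013 genes rose and 1857 fell (31 members) after Pam3Cys4. With shRNA 2170 rose there (9 members) and 1874 fell (1 member). DESeq2 called 26 members lower after Pam3Cys4 and 1 member lower with shRNA, Pola2 (log2 fold change -0.76). Without the 10 genes with most reads, members took 0.328% (Pam3Cys4) and 0.584% (unstimulated) of gene reads with shRNA and 0.286 and 0.608% without. The cause of these changes was not tested beyond the alternatives' own construction. Rfc4, Fen1 and Gins3, with the fewest reads, have the widest intervals.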
